A study of Homo sapiens with 6 samples.

Results

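Mitochondrial fatty acid oxidation was followed through 10 genes, CPT1A, CPT1C, CPT2, SLC25A20, ACADM, ACADVL, HADHA, HADHB, ETFA and ETFDH, picked by symbol from the deposited table of 16625 genes. Every one of the 10 was present once and was tested. The cells were human neurons derived from the induced pluripotent stem cell (iPSC) line UCSFi001-A, sampled at day 10 to 14 according to the design text. In both groups the iPSCs carried NGN2, a transcription factor that drives neuronal fate, at the AAVS1 locus under doxycycline control, and the neurons matured in BrainPhys medium with doxycycline, BDNF, NT-3 and laminin. Of 6 polyA RNA libraries, 3 came from the control iPSC line and 3 from the PEDS1 knockout line, all with 1 batch label. PEDS1 is the desaturase that completes plasmalogens, ether lipids of the cell membrane. Each group has a single source name in the labels, so a difference between groups cannot be told apart from a difference between lines or clones. Nothing in the labels says that replicates were separate cultures, so p-values cover the spread among these libraries alone, and that spread may be technical.

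Long-chain fatty acids enter mitochondria as carnitine esters. A CPT1 enzyme on the outer membrane makes the ester, SLC25A20 carries it across the inner membrane, and CPT2 turns it back into acyl-CoA in the matrix. Acyl-CoA dehydrogenases such as ACADVL and ACADM then open each turn of beta-oxidation, the trifunctional protein of HADHA and HADHB carries out the later steps on long chains, and electrons leave through the flavoprotein ETFA and the membrane enzyme ETFDH. Neurons are known for a low rate of this pathway compared with astrocytes.

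Read totals ran from 17996634 to 44573013 per library. PEDS1 itself had 1360.0, 1347 and 1399 normalized counts in controls 1, 2 and 3, and 836, 765 and 1349 in the libraries labelled knockout replicates 1, 2 and 3. The library labelled knockout replicate 3 thus lay within the control range. The PEDS1 difference missed the threshold (log2 difference -0.52 ± 0.17 SE, limma adjusted p = 0.0725). Without that library it was -0.77 ± 0.06 (SE, limma adjusted p = 0.000147). The position of the edit within PEDS1 is not given, so RNA level cannot tell whether the gene was disrupted in that library. Whether its label is right was not tested. Results that rest on this library are given with and without it. All 10 neuronal markers were tested, with a summed level of 160150 to 171979 normalized counts in controls and 193399 to 202532 in the libraries labelled knockout, and 2 of them rose and 2 fell. Of astrocyte markers 3 of 6 were tested, at a sum of 63.2 to 76.5 and 69.2 to 80.4, with 0 called, and GFAP, ALDH1L1 and GJA1 had no row. Pluripotency markers had 3 of 7 tested (sum 503 to 548 and 791 to 978, with POU5F1 and NANOG among those with no row, and LIN28A higher), and neural progenitor markers 6 of 7 (27042 to 28910.5 and 28998 to 32547, with 2 higher and 1 lower). Oligodendrocyte markers had 4 of 6 (388 to 427 and 535 to 538, with 1 higher) and mesenchymal markers 3 of 6 (49.998 to 61.9 and 51.0 to 121, with 1 higher). The part of these markers in the results was not tested. In bulk RNA, fewer cells of a type and less RNA per cell cannot be told apart.

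Of the 10 genes, 3 fell in the libraries labelled knockout, 0 rose and 7 did not pass the test (limma, adjusted p under 0.05 over all genes). Over all genes 13.6% passed, 7.69% as lower and 5.95% as higher. At an unadjusted limma p under 0.05, 1 of the 10 (ETFA) was higher and 3 were lower. The share of all genes at that looser cutoff was not counted. Run on the recovered reads, edgeR and DESeq2 called the same 3 genes lower and 0 higher. In edgeR 13.5% of all genes passed (5.54% higher, 7.98% lower). In DESeq2 18.0% of the 15013 genes given an adjusted p passed (8.49% higher, 9.54% lower). The genes that fell were CPT1A, CPT1C and ACADVL, so both measured CPT1 enzymes on the list and the long-chain dehydrogenase were lower, while the carrier, CPT2, the trifunctional protein and the electron transfer genes were not called. The median log2 difference was 0.03 over the 10 genes and -0.01 over all genes. The values of the groups did not overlap in 4 of the 10 genes, the same 3 and CPT2, against 37.1% of all genes (18.2% with the libraries labelled knockout lower and 19.0% with them higher).

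**Figure D1:**
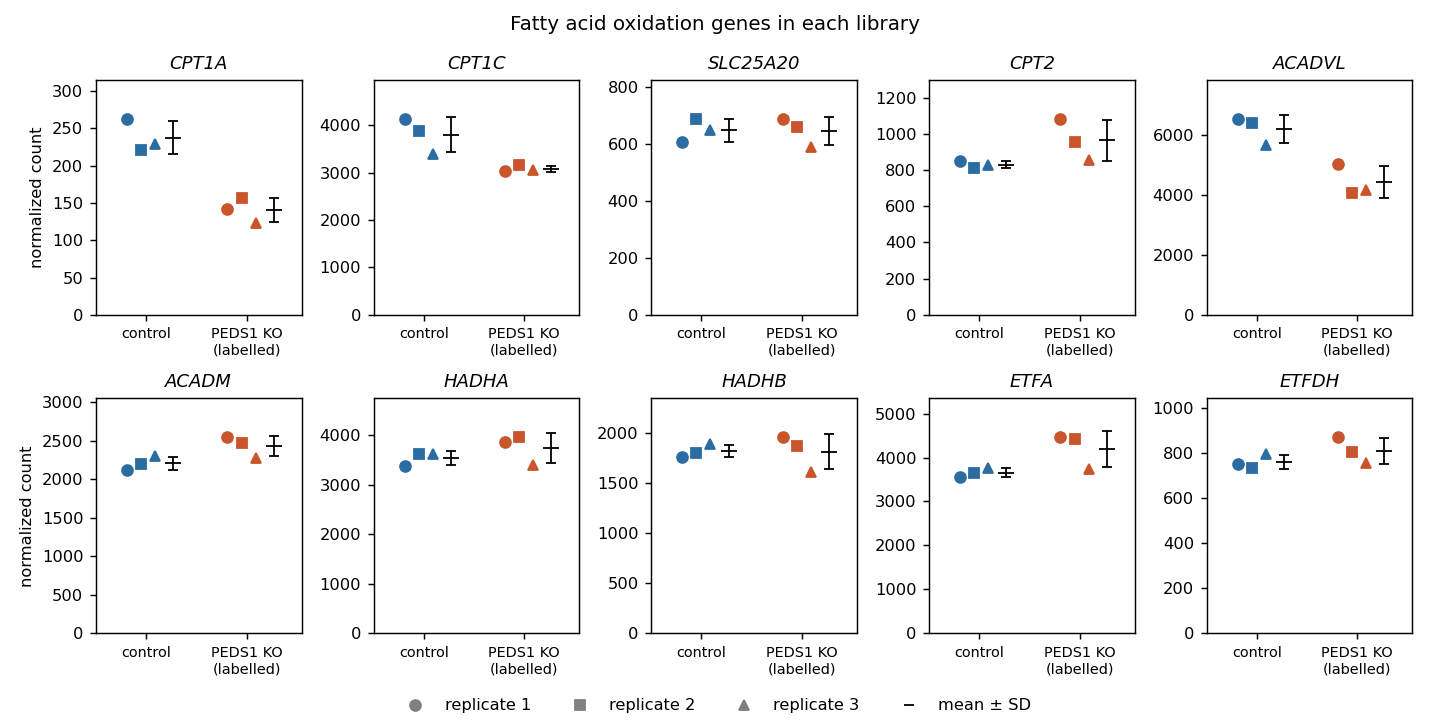
Normalized counts (vertical axes, each from 0) of the 10 genes in each library, with replicates by symbol and the mean ± SD beside each group (n = 3). CPT1A, CPT1C and ACADVL lie lower in every library labelled knockout than in any control, and CPT2 lies higher.

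CPT1A, the isoform that sets the rate of mitochondrial import in liver and many other tissues, had the largest fall of the 10. CPT1A (ENSG00000110090, GRCh38 chr11:68754620-68844410, minus strand) had 262, 220 and 229 normalized counts in controls 1, 2 and 3, and 141, 156 and 124 in the libraries labelled knockout 1, 2 and 3. Every library labelled knockout was below every control, by a wide gap. The means were 237 ± 22.2 and 140 ± 16.3 (SD, n = 3 each). CPT1A fell by 0.76 ± 0.12 (SE) on the log2 scale, with a 95% interval of -1.03 to -0.48, and thus fell by 40.8% (limma adjusted p = 0.00495). CPT1A passed in all 20 settings run, the one reported here included, with adjusted p from 3.65e-05 to 0.0347. Without the library labelled knockout replicate 3 the log2 difference was -0.67 ± 0.12 (SE).

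CPT1C, the brain isoform, which resides in the endoplasmic reticulum and has little transferase activity of its own, was the far more abundant CPT1 transcript in these neurons. CPT1C (ENSG00000169169, chr19:49690898-49713731, plus strand) had 4132, 3868 and 3394 normalized counts in controls and 3043, 3158 and 3047 in the libraries labelled knockout. The groups did not overlap, and control 3 lay nearest to the libraries labelled knockout. CPT1C fell by 0.30 ± 0.08 (SE) on the log2 scale (95% interval -0.48 to -0.11, limma adjusted p = 0.0400). This call was lost once the trends with GC content and length of the transcript had been taken out, where the log2 difference was -0.09 (adjusted p = 0.178), and it held in 12 of the 20 settings. The level of CPT1C per kb of transcript was 28.3, 31.6 and 26.6 times that of CPT1A in controls, and 38.7, 36.4 and 44.3 times in the libraries labelled knockout. The groups did not overlap in this ratio of levels, which the ranges of both genes already fix, so it adds no separate result.

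SLC25A20, the carnitine-acylcarnitine carrier (ENSG00000178537, chr3:48856931-48898993, minus strand), had 604, 687 and 649 normalized counts in controls and 685, 658 and 589 in the libraries labelled knockout. The groups overlapped fully, with the lowest value in the library labelled knockout replicate 3. The log2 difference was -0.01 ± 0.09 (SE), and its 95% interval of -0.21 to 0.20 leaves room for a change of either sign (limma adjusted p = 0.969). Leaving that library out gave 0.06 ± 0.08 (adjusted p = 0.633).

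CPT2, the transferase on the matrix side, lay on the other side of zero from CPT1A. CPT2 (ENSG00000157184, chr1:53196429-53214197, plus strand) had 849, 810 and 830 normalized counts in controls and 1082, 952 and 856 in the libraries labelled knockout. Every library labelled knockout was above every control, though replicate 3 exceeded control 1 by little. The log2 difference of 0.21 ± 0.09 (SE) missed the threshold (95% interval -0.001 to 0.42, limma adjusted p = 0.159). CPT2 passed as higher without the library labelled knockout replicate 3 (log2 difference 0.29, adjusted p = 0.0242) and with GC and length trends removed (0.27, adjusted p = 0.0258). The per-length level of CPT2 relative to CPT1A was 5.47, 6.21 and 6.13 in controls and 12.9, 10.3 and 11.7 in the libraries labelled knockout. The groups cannot overlap in this ratio, since CPT2 lay above and CPT1A below all controls, so it adds no separate result.

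The bases before the RefSeq starts (GRCh38.p14) of CPT1A and CPT2 are shown because their log2 differences had opposite signs. That of CPT2 missed the threshold, so a difference in direction is not established. Capitals mark matches to GGGCGG, the box bound by SP1-type factors, on either strand. Each line reads 5′ to 3′ on the strand of the gene, and holds the 250 bases that end just before the start. The first lies at chr11:68844278-68844527 (minus strand) and the second at chr1:53196574-53196823 (plus strand).
CPT1A: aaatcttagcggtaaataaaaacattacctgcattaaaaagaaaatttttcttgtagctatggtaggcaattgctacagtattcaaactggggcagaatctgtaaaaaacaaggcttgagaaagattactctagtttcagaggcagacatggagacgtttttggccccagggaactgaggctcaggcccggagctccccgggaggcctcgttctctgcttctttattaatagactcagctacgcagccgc
CPT2: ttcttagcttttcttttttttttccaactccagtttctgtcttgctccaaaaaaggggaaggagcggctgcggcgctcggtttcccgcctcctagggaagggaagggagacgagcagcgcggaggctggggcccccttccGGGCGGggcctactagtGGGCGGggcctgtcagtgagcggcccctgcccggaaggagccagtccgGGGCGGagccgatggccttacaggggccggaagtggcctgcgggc

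The CPT2 window holds GGGCGG 3 times and has 65.2% GC, and the CPT1A window holds none and has 44.4% GC, where the median over all 35116 starts was 58.0%. CPT1A was the one gene with no GGGCGG before a listed start among the 9 with a start in the RefSeq table. Of all starts 42.6% have the box within 250 bases. CPT1C and ACADVL, which also fell, have the box, and its part in the differences was not tested. Other motifs were searched on both strands. AGGTCA, the half-site of nuclear receptors such as the PPARs, was found before 0 of the 9 genes and 12.1% of all starts. Also before 0 of the 9 were both longer motifs that contain it, its direct repeat with 1 base between the copies (0.0171% of all starts) and TCAAGGTCA (0.319%). TGATGCAA, a CEBP-ATF element, was found before 0 of the 9 genes and 0.772% of all starts. GCATGCGC, the core of the NRF1 site, was found before CPT1C (2.63% of starts), as was TGACG (21.2%), and CCAAT before CPT1C and ETFA (11240 of all starts). CPT1C has 3 listed starts and ACADVL 2, which gives them more bases to match. The other 7 genes, CPT1A and CPT2 included, have 1 listed start each, and no other start was searched. By the gene spans given above, CPT1A begins inside its window (at 68844410) and CPT2 before its window (at 53196429). The matches and GC contents thus describe these windows, and a promoter at another start of CPT1A or CPT2 was not tested. These are matches of letters in a window and not evidence of binding.

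ACADVL, the dehydrogenase of very long chains and the most abundant of the 10 transcripts, fell. ACADVL (ENSG00000072778, chr17:7217125-7225273, plus strand) had 6522, 6387 and 5637 normalized counts in controls and 5025, 4062 and 4144 in the libraries labelled knockout. The lowest control stood above the highest library labelled knockout. ACADVL fell by 0.49 ± 0.10 (SE) on the log2 scale and thus fell by 28.8% (95% interval -0.70 to -0.28, limma adjusted p = 0.0108). With GC and length trends removed the log2 difference shrank to -0.30 and still passed (adjusted p = 0.0221). The call was lost without control 1 (adjusted p = 0.0658) or control 2 (0.0644), and without the variance trend (0.0568).

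ACADVL starts 102 bases from DLG4, the gene of the postsynaptic scaffold PSD-95, which is read in the opposite direction. The 101 bases between these RefSeq starts (GRCh38.p14 chr17:7219837-7219937, plus strand) are shown as the stretch that lies between the starts of both genes, with a GGGCGG match on the opposite strand in capitals.
ACADVL-DLG4: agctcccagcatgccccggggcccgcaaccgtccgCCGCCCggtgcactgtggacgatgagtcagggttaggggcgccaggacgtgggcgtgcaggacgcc

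DLG4 had 11300.0, 10923 and 10150.3 normalized counts in controls and 9099, 9875 and 12335 in the libraries labelled knockout. The library labelled knockout replicate 3 had the highest DLG4 value and the others labelled knockout the lowest. DLG4 was not called (log2 difference -0.06 ± 0.11 SE, limma adjusted p = 0.737), nor without that library, where the log2 difference was -0.19 ± 0.06 (adjusted p = 0.0560). In GENCODE 29, another start of ACADVL makes the genes overlap by 2717 bases on opposite strands. No source used here says whether reads were assigned by strand, so those from the overlap may not be told apart. The same limit holds for ETFA, which overlaps TMEM266 by 13767 bases, and for CPT2, which overlaps an antisense gene by 3993 bases. ACADM overlaps RABGGTB by 1379 bases on the same strand.

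ACADM, the dehydrogenase of medium chains (ENSG00000117054, chr1:75724347-75787575, plus strand), had 2128, 2203 and 2299.9 normalized counts in controls and 2546, 2474.5 and 2283 in the libraries labelled knockout. Replicates 1 and 2 labelled knockout were above all controls, and replicate 3 lay within the control range. The log2 difference of 0.14 ± 0.07 (SE) missed the threshold (95% interval -0.02 to 0.30, limma adjusted p = 0.221). ACADM passed as higher without the library labelled knockout replicate 3 (log2 difference 0.18, adjusted p = 0.0447), and in no other of the 20 settings. The level of ACADVL per kb relative to ACADM was 3.46, 3.27 and 2.76 in controls and 2.23, 1.85 and 2.05 in the libraries labelled knockout. The ranges of both genes already fix that the groups do not overlap in this ratio, so it adds no separate result.

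HADHA and HADHB encode the alpha and beta subunits of the trifunctional protein, which holds hydratase, hydroxyacyl-CoA dehydrogenase and thiolase activities. Their RefSeq starts lie 307 bases apart on chromosome 2 and point away from each other. The 250 bases before each start are shown because the windows share 194 bases, in capitals, read on opposite strands. HADHA lies on the minus strand (GRCh38.p14 chr2:26244633-26244882) and HADHB on the plus strand (chr2:26244689-26244938).
HADHA: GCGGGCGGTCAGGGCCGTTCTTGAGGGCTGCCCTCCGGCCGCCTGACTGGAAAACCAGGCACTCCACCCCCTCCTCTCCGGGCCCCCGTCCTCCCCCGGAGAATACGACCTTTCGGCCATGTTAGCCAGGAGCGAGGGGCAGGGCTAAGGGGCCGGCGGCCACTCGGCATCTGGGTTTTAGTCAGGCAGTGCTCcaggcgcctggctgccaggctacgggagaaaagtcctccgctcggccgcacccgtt
HADHB: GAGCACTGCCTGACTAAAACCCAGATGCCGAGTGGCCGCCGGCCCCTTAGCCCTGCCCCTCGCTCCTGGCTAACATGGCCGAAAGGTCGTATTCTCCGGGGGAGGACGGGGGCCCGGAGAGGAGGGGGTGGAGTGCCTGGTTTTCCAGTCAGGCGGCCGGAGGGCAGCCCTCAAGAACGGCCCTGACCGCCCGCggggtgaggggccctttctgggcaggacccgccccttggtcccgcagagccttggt

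HADHA (ENSG00000084754, chr2:26190635-26244726) had 3379, 3622 and 3608 normalized counts in controls and 3859, 3952 and 3388 in the libraries labelled knockout. HADHB (ENSG00000138029, chr2:26243170-26290468) had 1769, 1808 and 1890.1 in controls and 1961, 1879 and 1619 in the libraries labelled knockout. In both genes the library labelled knockout replicate 3 was the lowest of its group. Neither was called, at log2 differences of 0.08 ± 0.08 (SE, 95% interval -0.10 to 0.25, limma adjusted p = 0.536) for HADHA and -0.01 ± 0.09 (-0.20 to 0.18, 0.970) for HADHB. Without the library labelled knockout replicate 3 the log2 differences were 0.14 ± 0.05 (SE, limma adjusted p = 0.0817) for HADHA and 0.08 ± 0.06 (0.362) for HADHB, whose sign changed. Neither passed in any of the 20 settings. The per-length level of HADHA relative to HADHB was 1.35, 1.41 and 1.35 in controls and 1.39, 1.48 and 1.48 in the libraries labelled knockout, and the groups overlapped. GENCODE 29 has these genes overlap by 1557 bases on opposite strands, with the same limit on strand as for ACADVL.

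ETFA, the alpha subunit of the flavoprotein that takes electrons from the dehydrogenases, was the higher-level member of the electron transfer pair. ETFA (ENSG00000140374, chr15:76215355-76311472, minus strand) had 3566, 3641 and 3762 normalized counts in controls and 4458, 4411 and 3729.6 in the libraries labelled knockout. Replicates 1 and 2 labelled knockout stood well above the controls, and replicate 3 lay among them. The log2 difference of 0.20 ± 0.08 (SE) missed the threshold (95% interval 0.01 to 0.38 unadjusted, limma adjusted p = 0.136). ETFA passed as higher without the library labelled knockout replicate 3 (log2 difference 0.28, adjusted p = 0.00630) and with GC and length trends removed (0.19, adjusted p = 0.0260).

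ETFB, the beta subunit that pairs with ETFA, had 769, 681 and 569 normalized counts in controls and 571, 587 and 573 in the libraries labelled knockout. Control 3 lay at the level of the libraries labelled knockout, and ETFB was not called (log2 difference -0.21 ± 0.11 SE, limma adjusted p = 0.216). The per-length level of ETFA relative to ETFB was 7.20, 8.30 and 10.3 in controls and 12.1, 11.7 and 10.1 in the libraries labelled knockout, and the groups overlapped.

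ETFDH, which passes the electrons on to ubiquinone (ENSG00000171503, chr4:158672125-158709623, plus strand), had 750.2, 733 and 794 normalized counts in controls and 869, 804 and 753 in the libraries labelled knockout. The groups overlapped through replicate 3. The log2 difference was 0.09 ± 0.08 (SE, 95% interval -0.10 to 0.28, limma adjusted p = 0.493) and 0.14 ± 0.07 without that replicate (adjusted p = 0.189), and ETFDH passed in none of the 20 settings.

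**Figure D2:**
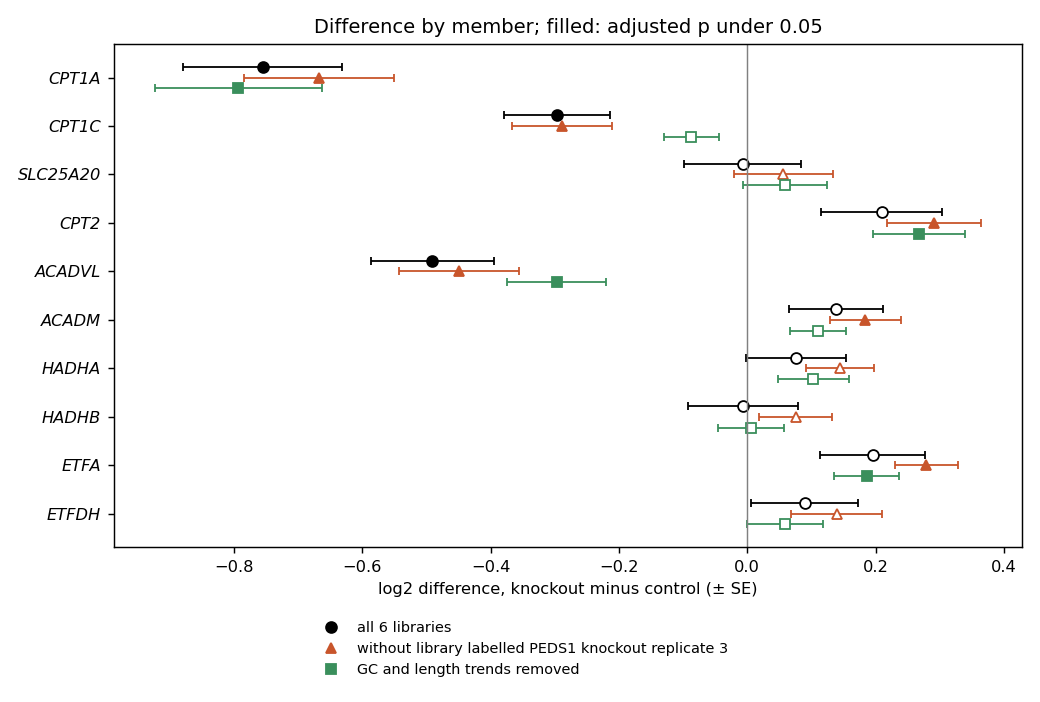
Log2 difference, knockout minus control, of each gene (horizontal axis, bars ± SE), with all 6 libraries (circles), without the library labelled knockout replicate 3 (triangles) and with GC and length trends removed (squares); filled symbols passed at adjusted p under 0.05. CPT1A and ACADVL are filled on the left under all 3, while CPT2 and ETFA are filled on the right under the other two.

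Levels between the genes were compared per kb of the longest coding transcript. In controls the order of mean levels was ACADVL (2661 normalized counts per kb), ETFA (1599), CPT1C (1305), HADHA (1164), HADHB (851), ACADM (844), SLC25A20 (344), CPT2 (268), ETFDH (231) and CPT1A (45.3). Neighbours in this order had separate ranges over the 3 controls, except CPT1C with HADHA and HADHB with ACADM, whose ranges overlapped. Lengths from all exons of the basic annotation gave the same order. In the libraries labelled knockout HADHA stood above CPT1C and ACADM above HADHB by mean. The ranges there overlapped between ACADVL (mean 1898) and ETFA (1836), between ACADM and HADHB, and between SLC25A20 and CPT2. CPT1A remained the lowest at 26.8 normalized counts per kb.

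**Figure D3:**
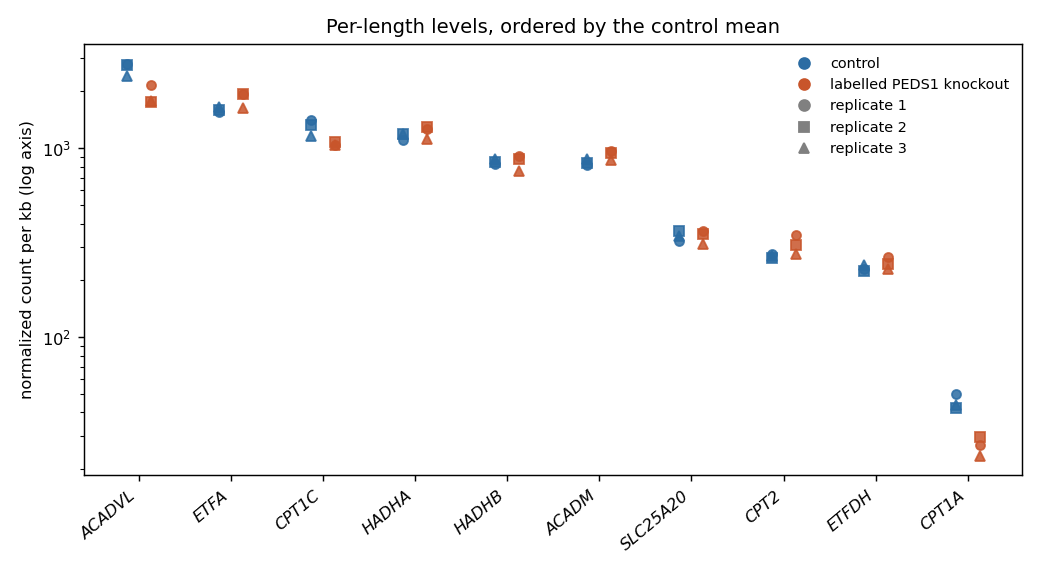
Normalized counts per kb of transcript (log axis) in each library, with genes ordered by the control mean. ACADVL has the highest mean in both groups, with ETFA above it in the library labelled knockout replicate 2, and CPT1A is lowest in every library.

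The library labelled knockout replicate 3 was the lowest of the 3 in 8 of the 10 genes, the exceptions being CPT1C and ACADVL, against 35.0% of all genes and 38.0% of those with a mean of 500 or more. The coefficient of variation ran from 2.39% to 9.84% among controls and from 2.11% to 12.1% among the libraries labelled knockout. It was larger in the latter for 9 of 10 genes, all but CPT1C, and the share of all genes with that order was not counted. Replicates labelled knockout also lay further apart over genes in general, with a mean chi-square per gene of 10.9 to 32.3 against 2.67 to 11.8 in controls. The fit without the library labelled knockout replicate 3 had 3 of the 10 genes higher and 3 lower, where 21.5% of all genes passed in the same fit, 10.4% as higher and 11.1% as lower. Those that rose were CPT2, ACADM and ETFA, and those that fell were CPT1A, CPT1C and ACADVL. With GC and length trends removed, 2 rose (CPT2 and ETFA) and 2 fell (CPT1A and ACADVL), against 11.2% and 9.20% of all genes (20.4% in all).

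The GC content of the transcript moved with the difference. ACADVL had 58.6% GC and CPT1C 59.8%, the highest of the 10, and ACADM (41.0%), ETFA (43.8%), ETFDH (44.1%) and HADHB (46.6%) had the lowest, beside a median of 48.2% over all genes. CPT1A, at 50.8%, lay close to SLC25A20 (51.1%), CPT2 (52.0%) and HADHA (49.6%), and its log2 difference was -0.79 with the trends removed and -0.76 without. Across the 10 genes Pearson's r between GC content and log2 difference was -0.59, and it was -0.61 across the 45 other listed genes and -0.46 across 11591 genes with a mean of 100 or more. These are descriptions of genes that share libraries, and the part of GC content in the differences was not tested beyond the removal of its trend.

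**Figure D4:**
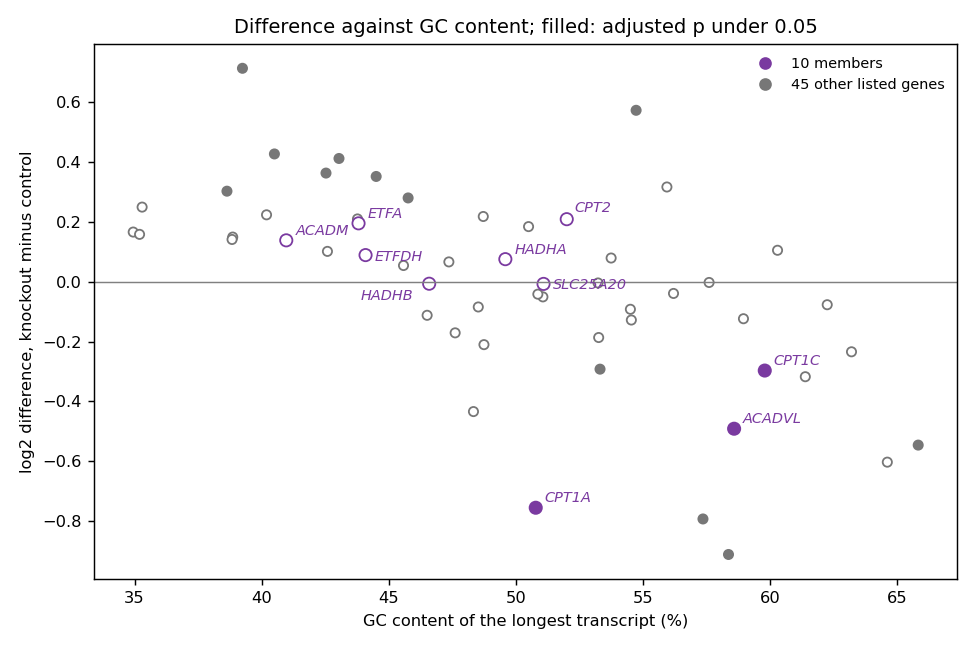
Log2 difference, knockout minus control (vertical axis) against GC content of the longest transcript in percent (horizontal axis), for the 10 genes (purple) and 45 other listed genes (grey); filled points passed at adjusted p under 0.05. CPT1C and ACADVL sit at the GC-rich end, at 59.8% and 58.6%, and CPT1A near the middle at 50.8%.

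The expression pattern of CPT1A was set beside that of 11454 other genes with a symbol and a mean of 100 or more, by the root mean square difference of log2 values centred per gene over the 6 libraries. The nearest were MYDGF (0.08), HDHD3 (0.09), CEBPB (0.09), HSD17B7 (0.09) and CDHR1 (0.09). MYDGF had 1646, 1539.6 and 1469.7 normalized counts in controls and 1005, 1125 and 911 in the libraries labelled knockout. Among the other 9 genes of the pathway the nearest was ACADVL (0.21), at rank 329, and the farthest CPT2 (0.49). The measure includes the difference between groups, so genes with a like fall come out near CPT1A, and this order largely restates the log2 differences.

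Beyond the 10 genes, 49 genes of the same pathway, its branches and its regulators were listed, of which 45 were tested. Of these 8 rose, 4 fell and 33 did not pass (limma, adjusted p under 0.05), a share of 26.7% beside 13.6% of all genes (5.95% higher, 7.69% lower). The lists were chosen with earlier results of these data known, so this share is a description and no evidence of an excess. The median log2 difference was 0.05, beside -0.01 over all genes. The calls fell on carnitine and flavin supply, the propionyl-CoA branch, ketone use and regulators, and 0 of 15 other acyl-CoA dehydrogenases and matrix enzymes passed. Among these 15, unadjusted limma p was under 0.05 in 1 gene as higher and 2 as lower, a cutoff whose share of all genes was not counted. Both edgeR and DESeq2 called 0 of the 15. Without the library labelled knockout replicate 3, ACAT1 and DECR1 passed as higher and ACADS as lower, and with GC and length trends removed ECHS1 and DECR1 passed as higher. In the fit of all libraries those 15 ranged from -0.60 for ACADS to 0.21 for DECR1.

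SLC25A29, a mitochondrial carrier of basic amino acids that has also been described as carnitine-acylcarnitine-carrier-like, had 3065, 3027 and 2538 normalized counts in controls and 1573, 1437 and 1564 in the libraries labelled knockout. It fell by 0.91 ± 0.09 (SE) on the log2 scale (limma adjusted p = 0.000286), the largest fall on these lists, and passed in all 20 settings. CPT1B, the muscle isoform of CPT1, had 92.6, 90.3 and 91.4 normalized counts in controls and 65.4, 40.2 and 54.4 in the libraries labelled knockout, and fell by 0.79 ± 0.18 (SE) on the log2 scale (limma adjusted p = 0.0212). CPT1B lies within a readthrough gene with CHKB on the same strand, so the split of reads between them is uncertain. All 3 CPT1 isoforms were thus called lower with all libraries, but only the call of CPT1A held in every setting. CPT1C lost its call once GC and length trends were removed, among other settings. CPT1B passed in 15 of 19 settings. Its call was lost without control 1, 2 or 3 (limma adjusted p = 0.0899, 0.0843 and 0.0543) and without the variance trend (0.0501). TMLHE, the first enzyme of carnitine synthesis, rose by a log2 difference of 0.41 ± 0.11 (limma adjusted p = 0.0373). Its call held in 14 of 20 settings, and was lost without the library labelled knockout replicate 3 (adjusted p = 0.0518), among others. CRAT, SLC22A5 and ALDH9A1 were not called, at log2 differences between -0.08 and 0.07. CRAT, the carnitine acetyltransferase (62.3% GC), changed sign with GC and length trends removed and passed as higher there (log2 difference 0.19, adjusted p = 0.0123).

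Flavin and flavoprotein genes moved in both directions. ETFBKMT, which methylates ETFB, had 99.1, 104 and 122 normalized counts in controls and 175, 158 and 204 in the libraries labelled knockout, with no overlap, and rose by a log2 difference of 0.71 ± 0.14 (SE, limma adjusted p = 0.0101). RFK, the riboflavin kinase, rose by a log2 difference of 0.30 (adjusted p = 0.0278). FLAD1, which makes FAD from the product of RFK, fell by 0.29 (adjusted p = 0.0443), and the riboflavin transporter SLC52A2 fell by 0.55 (adjusted p = 0.0289). FLAD1 (53.3% GC) and SLC52A2 (65.8% GC) lost their calls with GC and length trends removed. The log2 difference was then -0.20 for FLAD1 (adjusted p = 0.0510) and -0.18 for SLC52A2 (adjusted p = 0.0766). Of 20 settings, the calls held in 18 for ETFBKMT, 14 for RFK, 12 for FLAD1 and 13 for SLC52A2.

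PCCA and PCCB, the subunits of propionyl-CoA carboxylase, which takes up the last carbons of odd chains, rose by log2 differences of 0.35 ± 0.09 and 0.28 ± 0.07 (SE, limma adjusted p = 0.0290 and 0.0336). Removal of the GC and length trends ended the call of PCCB (adjusted p = 0.0564). The calls held in 14 of 20 settings for PCCA and 12 of 20 for PCCB. OXCT1, which activates ketone bodies for use as fuel, had 4794, 5284 and 5399 normalized counts in controls and 6605, 6830.0 and 6455 in the libraries labelled knockout. All 3 of the latter were above all controls, and OXCT1 rose by a log2 difference of 0.36 ± 0.07 (SE, limma adjusted p = 0.0105).

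Of 10 measured regulators 2 rose and 0 fell, as in edgeR and DESeq2, beside 13.6% of all genes passing in limma (5.95% higher, 7.69% lower). At an unadjusted limma p under 0.05, 5 were higher and 0 lower. That cutoff is looser than the one behind these shares, and its share of all genes was not counted. Without the library labelled knockout replicate 3, 1 rose and 0 fell, where 21.5% of all genes passed. PPARGC1A, the coactivator PGC-1alpha that drives mitochondrial genes, had 767, 764 and 776 normalized counts in controls and 927, 938 and 1270.4 in the libraries labelled knockout, with replicate 3 far above the others. It rose by a log2 difference of 0.43 ± 0.12 (SE, limma adjusted p = 0.0390), and by 0.28 without replicate 3 (adjusted p = 0.0149). ACACB, the acetyl-CoA carboxylase whose product malonyl-CoA inhibits CPT1, had 71.9, 71.7 and 71.0 normalized counts in controls and 91.4, 98.9 and 135 in the libraries labelled knockout. It rose by a log2 difference of 0.57 ± 0.16 (SE, limma adjusted p = 0.0430). That call was lost without the library labelled knockout replicate 3, the highest of all (log2 difference 0.41, adjusted p = 0.0677), among other settings. The ACACB call held in 12 of 19 settings, and that of PPARGC1A in 16 of 20. PPARA, the fatty acid receptor that activates CPT1A in liver, was not called (log2 difference -0.17 ± 0.10 SE, limma adjusted p = 0.278), and passed as lower in 1 of the 20 settings, with GC and length trends removed (-0.31, adjusted p = 0.0457).

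**Figure D5:**
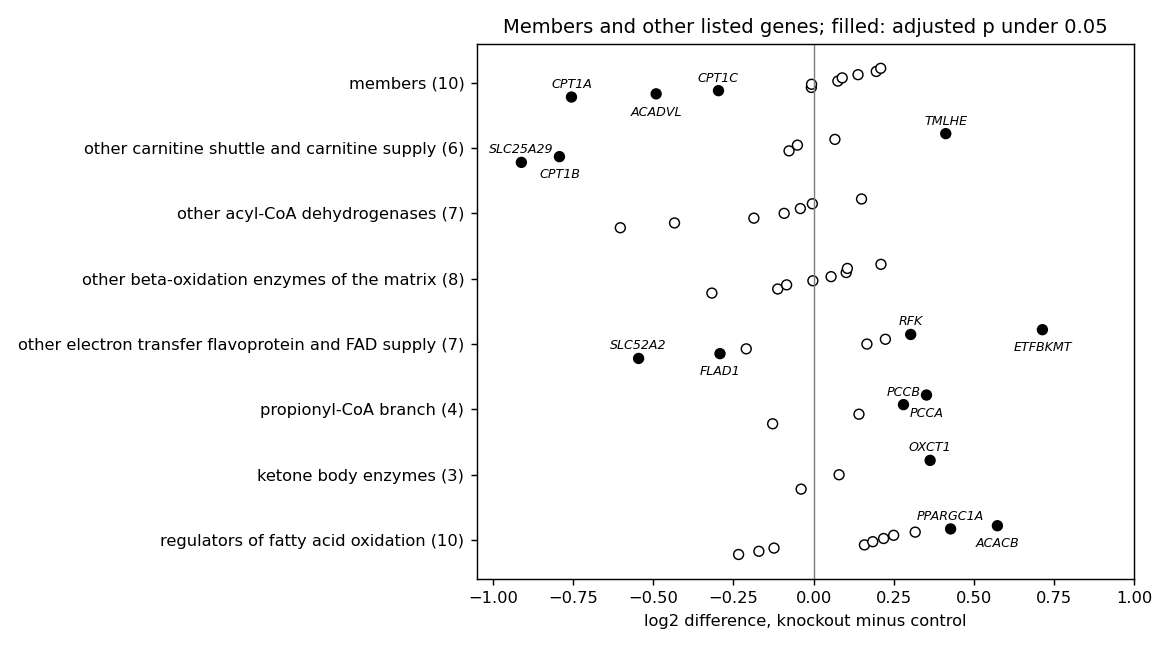
Log2 difference, knockout minus control (horizontal axis) of the 10 genes and of 45 other genes in 7 lists, 1 point a gene, with the number measured in brackets; filled and named points passed at adjusted p under 0.05. The 4 falls among other genes lie on the carnitine and flavin lists, and the acyl-CoA dehydrogenase and matrix enzyme lists hold no filled point.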

How the data were processed

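PolyA RNA was sequenced from stranded libraries of 500 ng RNA as single-end reads of 100 bases, per the labels' protocols. STAR 2.7.10b, DESeq2 and build GRCh38 are named in the submitters' processing notes, while the counting tool, strand setting and gene models were not given in those sources. Each library's deposited column holds, for every gene, the signal the authors got by dividing read counts by that library's size factor. All values were whole multiples of a library's step (100% within 1e-06), so reads were recovered, and every gene had at least 10 reads in 3 libraries. The authors' deposited table adds columns that the file headers name as log2 fold change, Wald statistic (a score), p-value and adjusted p-value, the last empty in 1612 genes.

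Because the values were normalized counts, limma 3.58.1 (R 4.3.3) was used in place of edgeR, on log2(normalized count + 1) with a variance trend, p-values being adjusted by Benjamini-Hochberg across the 16625 genes, which understates changes of low genes. The median SE was 0.09 for genes with a mean of 100 or more. The members, gene lists and tests were chosen with earlier results of these data known. Named genes were the 10 members, PEDS1, other listed genes with adjusted p under 0.05, neighbours starting within 1000 bases in the opposite direction, and the 5 genes most like the member with the smallest adjusted p. ETFB, DECR1, ACADS, CRAT, SLC22A5, ALDH9A1, ACAT1, ECHS1, PPARA and LIN28A were named after their values were seen, and the motifs were chosen then too. Alternatives were edgeR 4.0.16 and DESeq2 1.42.0 on recovered reads, the authors' values, pseudocounts, scalings, filters, no variance trend, a replicate block, removal of GC and length trends (natural splines with 4 degrees of freedom, GENCODE 29, 96.5% of genes) and leaving out each library. A sign change counted as a reversal only where a call was made. The fits were tested on simulated data. Within groups, replicates were further apart than counting noise allows. The mean chi-square per gene was 2.67 to 11.8 between controls and 10.9 to 32.3 between libraries labelled knockout. Sequences are from RefSeq, GRCh38.p14, where 9 of 10 members had an entry.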

Additional observations from a re-analysis of the deposited data

How the results depend on the processing

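The count of 3 called members was 3 with both pseudocounts, both scalings, both filters, edgeR, DESeq2 and the authors' adjusted p-values, and CPT1A passed in every setting. The count was 1 without the variance trend and ran from 1 to 6 when 1 library was left out. It was 1 without control 1 or 2, and 6 (3 higher, 3 lower) without the library labelled knockout replicate 3. The count of 12 other listed genes was 3 without the variance trend and ran from 1 to 13 when 1 library was left out, with 1 without control 1 or 2, and 7 without the library labelled knockout replicate 1 or 2. Correlations of deviations between same-numbered libraries were -0.30, 0.10 and -0.05, and ran from -0.22 to 0.27 between libraries of unlike number. With 3 libraries a group these cannot decide whether the numbers pair the libraries. With a replicate block the counts were 2 members, CPT1C being lost (adjusted p = 0.0606), and 5 other genes. With the block and trend removal together they were 4 and 11. The 3 members and 12 other genes called with all libraries kept their direction in every setting. CRAT, not called there (log2 difference -0.08), was called higher with GC and length trends removed (0.19). The cause of these changes was not tested. In the limma fit of all 6 libraries without trend removal, the smallest log2 difference called among members and listed genes was 0.28 (PCCB). About 0.2 was not called there (CPT2 and ETFA). Larger differences with a larger SE were not called either, such as ACADS (-0.60 ± 0.19 SE, limma adjusted p = 0.0592) and PEDS1 (-0.52 ± 0.17 SE, 0.0725). A gene not called may thus differ by more than 0.28. With GC and length trends removed, ETFA and CRAT were called at 0.19 each.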
